A study of Mus musculus with 35 samples.

Results

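The genes described here are 10 markers of striatal interneurons: Sst, Npy, Nos1, Chodl, Pvalb, Chat, Slc5a7, Slc18a3, Th and Calb2. They were picked by symbol for the cell types they mark. Of the 10 genes, 9 have a row among the 39017 genes of the count table, and Slc18a3 was not analysed here. All 9 passed the count filter (6 or more counts in each library of some genotype group), as did 17346 genes in total.

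RNA from the striata of 35 mice aged 21.71 to 23.0 weeks was sequenced, 1 library per mouse, to compare an expanded huntingtin allele with and without Hdac2 in medium-spiny neurons (MSNs). There were 8 Htt+/+ Hdac2 WT mice (5 males), 7 HttQ111/+ Hdac2 WT mice (4 males), 9 Htt+/+ Hdac2 KO mice (5 males) and 11 HttQ111/+ Hdac2 KO mice (8 males). HttQ111 is a knock-in of a long CAG repeat into mouse huntingtin, here of 110 to 140 repeats in Hdac2 WT and 110 to 144 repeats in Hdac2 KO mice. The letter of the mouse ID (A, V or Z) is called the ID series below. HttQ111/+ mice of series V had 131 to 144 repeats, and those of series A and Z had 110 to 118. Series and repeat length therefore cannot be told apart. Hdac2 KO mice carry a floxed Hdac2 on both chromosomes and the D9-Cre transgene, which is driven by regulatory sequence of Ppp1r1b (DARPP-32) and acts in MSNs from 5 to 6 weeks of age. Hdac2 WT mice had no Cre. They were recorded as homozygous for the floxed allele, apart from 2 Htt+/+ mice. Effects of Cre and of the Hdac2 deletion therefore cannot be told apart.

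Interneurons are a small minority of striatal neurons, and because they do not use the Ppp1r1b promoter they keep Hdac2 in the KO mice. One class releases the peptides somatostatin (Sst) and neuropeptide Y (Npy) and makes nitric oxide with neuronal nitric oxide synthase (Nos1), and a subset of it carries the lectin Chodl. Fast-spiking interneurons hold the calcium buffer parvalbumin (Pvalb), and a further class holds calretinin (Calb2). Cholinergic interneurons make acetylcholine with choline acetyltransferase (Chat), take up choline with Slc5a7 and load vesicles with Slc18a3. Tyrosine hydroxylase (Th) makes the precursor of dopamine and marks another GABAergic class. In Huntington's disease MSNs degenerate while most interneurons are relatively spared.

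The libraries held 50970712 to 77867348 counts on genes. These totals are above the median number of paired-end reads per library that the paper gives. The mates of a pair may therefore have been counted separately, which was not tested, so counts here need not be numbers of RNA fragments. The targeted gene, Hdac2, counted over its whole length, had 95.6 to 111 CPM (counts scaled by TMM to a common library size) in HttQ111/+ Hdac2 WT and 97.6 to 107 CPM in Htt+/+ Hdac2 WT striata. It had 89.4 to 99.2 CPM in Htt+/+ Hdac2 KO and 89.8 to 101 CPM in HttQ111/+ Hdac2 KO striata. These counts include the deleted exons and the remaining exons alike, and every striatal cell type contributes. RNA extraction days nearly followed the Hdac2 genotype, with 1 Hdac2 KO library of each Htt genotype extracted on a day that also held Hdac2 WT libraries. In bulk tissue, fewer cells of a type and less RNA per cell cannot be told apart.

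Promoter windows of 5 markers, taken by position alone, are shown because these markers either passed a test of genotype below or varied among mice with another marker of their own class. Each is the 150 bases before the RefSeq start (GRCm38.p6), read on the strand of the gene, and RefSeq held such a window for 9 of the 10 markers. Capitals mark the cAMP response element TGACGTCA or its shorter form TGACG, searched on both strands, so that CGTCA is TGACG on the other strand, and each TGACGTCA also holds TGACG.
Sst, chr16:23890845-23890994, minus strand: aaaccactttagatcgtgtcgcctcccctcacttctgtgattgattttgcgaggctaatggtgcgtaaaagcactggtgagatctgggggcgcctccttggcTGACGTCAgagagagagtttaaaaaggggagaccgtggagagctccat
Npy, chr6:49822560-49822709, plus strand: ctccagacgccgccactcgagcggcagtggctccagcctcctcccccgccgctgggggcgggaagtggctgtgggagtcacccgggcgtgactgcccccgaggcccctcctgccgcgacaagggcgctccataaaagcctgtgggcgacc
Nos1, chr5:117866689-117866838, plus strand: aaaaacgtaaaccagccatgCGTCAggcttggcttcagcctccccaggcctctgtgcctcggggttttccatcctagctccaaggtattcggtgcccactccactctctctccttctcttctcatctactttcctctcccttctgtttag
Chat, chr14:32465910-32466059, minus strand: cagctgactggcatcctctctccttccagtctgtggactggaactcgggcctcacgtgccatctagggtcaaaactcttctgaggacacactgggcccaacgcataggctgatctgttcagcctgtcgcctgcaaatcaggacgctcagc
Slc5a7, chr17:54299035-54299184, minus strand: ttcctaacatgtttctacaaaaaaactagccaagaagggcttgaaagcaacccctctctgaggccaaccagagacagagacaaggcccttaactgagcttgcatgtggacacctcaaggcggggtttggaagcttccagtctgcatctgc

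The Sst window holds TGACGTCA with its first base at position -48 from the start, and among the markers not printed the Th window holds it at -45. The element occurred in 1.36% of 32851 promoter windows of this length, and TGACG in 13.3%. The Nos1 window lies far inside the counted interval, which begins at chr5:117781032, and holds the shorter form at -130. Whether transcripts begin at that RefSeq start was not tested, so this window may not be a promoter of Nos1. The other windows printed hold neither string.

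Peptide markers of the Sst class were the most abundant of the 9 genes once length was taken into account. Per kb of merged exons (GENCODE M21), the mean level over 35 libraries was 134 ± 15.5 CPM per kb (SD) for Sst, 64.8 ± 10.5 for Npy, 19.99 ± 5.97 for Pvalb, 14.7 ± 1.76 for Slc5a7 and 7.36 ± 0.961 for Chat. Nos1 followed at 3.82 ± 0.477 CPM per kb, then Th at 2.82 ± 0.378, Calb2 at 1.32 ± 0.277 and Chodl at 0.523 ± 0.113. Counts were made over whole gene intervals, so intron reads are part of these levels. The interval of Th (chr7:142892752-142931120, minus strand) also reaches upstream of its RefSeq start, whose window is chr7:142899996-142900145. Reads from there can be part of the level of Th. Chodl and Calb2 rested on the fewest counts, 68 to 256 and 72 to 200 per library, whereas Sst had 4499 to 7101.

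The 4 genotype groups overlapped for every marker. Among the 36 pairings of a marker with a pair of groups that differ in 1 genotype, the CPM ranges overlapped in 36. The share of all genes whose ranges did not overlap was 4.70% for Hdac2 KO in Htt+/+, 1.43% for Hdac2 KO in HttQ111/+, 0.140% for HttQ111 in Hdac2 WT and 0% for HttQ111 in Hdac2 KO. The lowest group mean lay between 4.99% (Sst) and 19.1% (Pvalb) below the highest. For none of the 9 markers did the gap between the highest and the lowest group mean exceed the SD of the widest group. In units of that SD, the gap ran from 0.272 (Calb2) to 0.819 (Nos1).

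**Figure D1:**
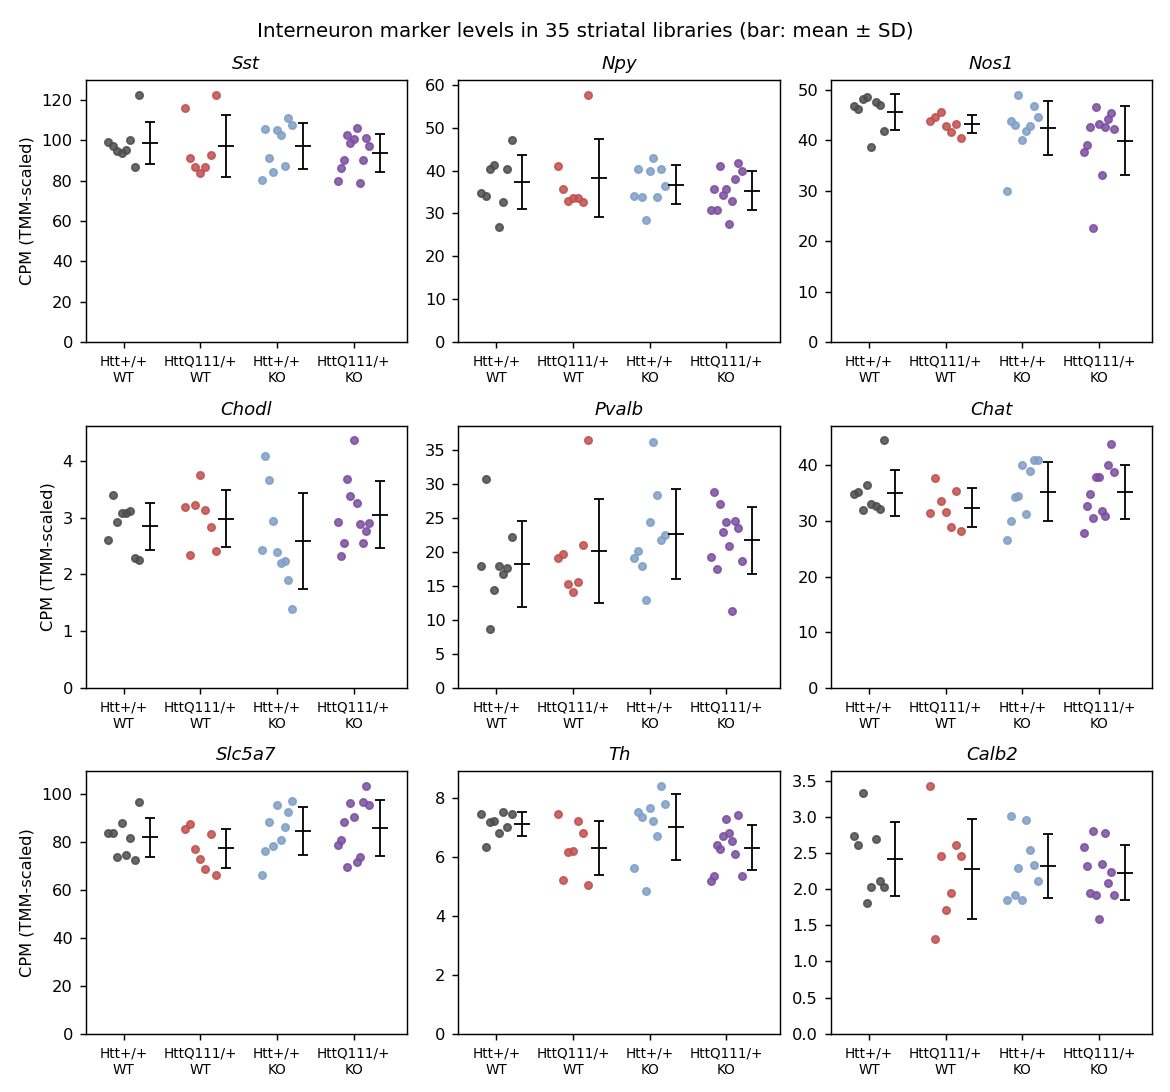
CPM of each of the 9 markers (vertical axis, TMM-scaled, from 0) in each of 35 libraries (points) by genotype group (horizontal axis, WT and KO refer to Hdac2), with the group mean ± SD beside the points. The 4 groups overlap in each panel, and 1 Htt+/+ Hdac2 KO library (30.0 CPM) and 1 HttQ111/+ Hdac2 KO library (22.7 CPM) lie far below the others for Nos1.

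Nos1 (ENSMUSG00000029361, chr5:117781032-117953813, plus strand) was the marker with the clearest difference by Hdac2 genotype. Its level was 38.7 to 48.7 CPM (median 46.9) in Htt+/+ Hdac2 WT and 40.6 to 45.7 CPM (median 43.2) in HttQ111/+ Hdac2 WT striata. It was 30.0 to 49.1 CPM (median 43.1) in Htt+/+ Hdac2 KO and 22.7 to 46.7 CPM (median 42.6) in HttQ111/+ Hdac2 KO striata. Both KO groups thus reached lower than the WT groups, through few libraries, while their upper ends met. The overlapping gene Gm26995 may share reads with Nos1, since the use of strand in counting is not stated.

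In the fit with 9 surrogate variables (estimated unwanted variation), Nos1 was lower with Hdac2 KO in Htt+/+ mice by a log2 fold change of -0.20 (SE 0.066, adjusted p = 0.0287, edgeR's quasi-likelihood test, adjusted by Benjamini-Hochberg over all genes tested). This is a difference of -13.2% in the fit (95% interval -21.0% to -4.51%), against -6.88% between the group means. Nos1 was the 1 of 9 markers called in this comparison, in which 17.8% of all genes were called. The DESeq2 Wald test gave an adjusted p of 0.0206 (log2 fold change -0.20). The call was lost with groups alone and no covariates (log2 fold change -0.11, edgeR adjusted p = 0.427) and with extraction date replacing the surrogate variables (-0.15, edgeR adjusted p = 0.65). It was also lost without Htt+/+ Hdac2 WT replicate 2 (-0.15, edgeR adjusted p = 0.272) and without Htt+/+ Hdac2 KO replicate 1 (-0.14, edgeR adjusted p = 0.134). The latter is the library at 30.0 CPM.

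Within a single extraction day, the Htt+/+ Hdac2 KO library of 27 May had 44.6 CPM of Nos1 against 47.6 to 48.7 CPM in 3 Htt+/+ Hdac2 WT libraries. On 25 May the HttQ111/+ Hdac2 KO library had 37.6 CPM against 40.6 and 42.8 CPM in 2 HttQ111/+ Hdac2 WT libraries. Both KO libraries lay below the WT libraries of their day, but 1 library a day allows no test. For Sst the same KO libraries lay above (107 CPM against 93.8 to 100.1 CPM) and below (79.8 CPM against 83.9 and 122 CPM) the WT libraries of their day.

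Sst (ENSMUSG00000004366, chr16:23889581-23890844, minus strand) ranged from 86.7 to 123 CPM (median 96.1) in Htt+/+ Hdac2 WT and from 83.9 to 122 CPM (median 91.0) in HttQ111/+ Hdac2 WT striata. In Hdac2 KO striata it ranged from 80.1 to 111 CPM with Htt+/+ (median 103) and from 78.9 to 106 CPM with HttQ111/+ (median 97.2). The highest values were in Hdac2 WT libraries, but the medians of the KO groups were not below those of the WT groups. The fitted log2 fold change with Hdac2 KO was -0.10 (SE 0.053) in Htt+/+ and -0.12 (SE 0.0474) in HttQ111/+ mice, with edgeR adjusted p of 0.206 and 0.089. The differences of group means were smaller, -1.46% and -3.42%.

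Npy (ENSMUSG00000029819, chr6:49822710-49829507, plus strand) ranged from 26.9 to 47.2 CPM (median 37.6) in Htt+/+ Hdac2 WT and from 32.6 to 57.7 CPM (median 33.7) in HttQ111/+ Hdac2 WT striata. In Hdac2 KO striata it ranged from 28.4 to 42.9 CPM with Htt+/+ (median 36.4) and from 27.5 to 41.9 CPM with HttQ111/+ (median 35.6). The top of the HttQ111/+ Hdac2 WT range was set by 1 library, replicate 7, and the next in that group had 41.0 CPM. Replicate 7 also held 422 CPM of 6 cortical projection neuron genes, against a group median of 24.3. Npy varied with that cortical sum over the 35 libraries, with r = 0.458 (adjusted permutation p = 0.0471) and rho = 0.346, and r was 0.193 without the 2 farthest libraries, so that the relation rests on those. The part of cortical RNA in the level of Npy was not tested. Npy was not called in any comparison, with fitted log2 fold changes of -0.07 (SE 0.088) and -0.14 (SE 0.0781) for Hdac2 KO in Htt+/+ and HttQ111/+ mice.

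Chodl (ENSMUSG00000022860, chr16:78930948-78951733, plus strand) had medians of 3.00, 3.13, 2.40 and 2.90 CPM in Htt+/+ Hdac2 WT, HttQ111/+ Hdac2 WT, Htt+/+ Hdac2 KO and HttQ111/+ Hdac2 KO striata. The Htt+/+ Hdac2 KO group was the most spread, from 1.39 to 4.09 CPM, against 1.39 to 4.36 CPM over all 35 libraries. In all 4 groups the mean of the females was below that of the males, at 0.809 to 0.931 of it, which was not tested. The fitted difference with Hdac2 KO was -0.12 (SE 0.15) in Htt+/+ and 0.10 (SE 0.132) in HttQ111/+ mice on the log2 scale, and neither was called by edgeR's quasi-likelihood test.

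Averaged over both Htt genotypes, the Hdac2 KO effect was called for 2 of the 9 markers, with 25.0% of all genes called. Nos1 was lower by a log2 fold change of -0.17 (SE 0.0493, edgeR adjusted p = 0.0102) and Sst by -0.11 (SE 0.0401, edgeR adjusted p = 0.0384). These correspond to -11.1% for Nos1 (95% interval -17.2% to -4.55%) and -7.39% for Sst (95% interval -12.6% to -1.9%). Without covariates the values were -0.11 (edgeR adjusted p = 0.201) for Nos1 and -0.04 (edgeR adjusted p = 0.668) for Sst. Without the 4 libraries that stood apart in a marker (Htt+/+ Hdac2 WT replicate 9, HttQ111/+ Hdac2 WT replicate 7, Htt+/+ Hdac2 KO replicate 1 and HttQ111/+ Hdac2 KO replicate 4), a setting chosen after the data were seen, they were -0.10 (edgeR adjusted p = 0.161) and -0.08 (edgeR adjusted p = 0.221).

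Single libraries decided the average calls. That of Nos1 was lost without Htt+/+ Hdac2 WT replicate 2 (-0.14, edgeR adjusted p = 0.0934). That of Sst was lost on leaving out any of 9 libraries. These were Htt+/+ Hdac2 WT replicates 2 (edgeR adjusted p = 0.184) and 7 (0.0856), HttQ111/+ Hdac2 WT replicates 1 (0.248) and 6 (0.0697), Htt+/+ Hdac2 KO replicates 1 (0.0849) and 7 (0.0758), and HttQ111/+ Hdac2 KO replicates 1 (0.0553), 3 (0.0502) and 4 (0.0577).

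**Figure D2:**
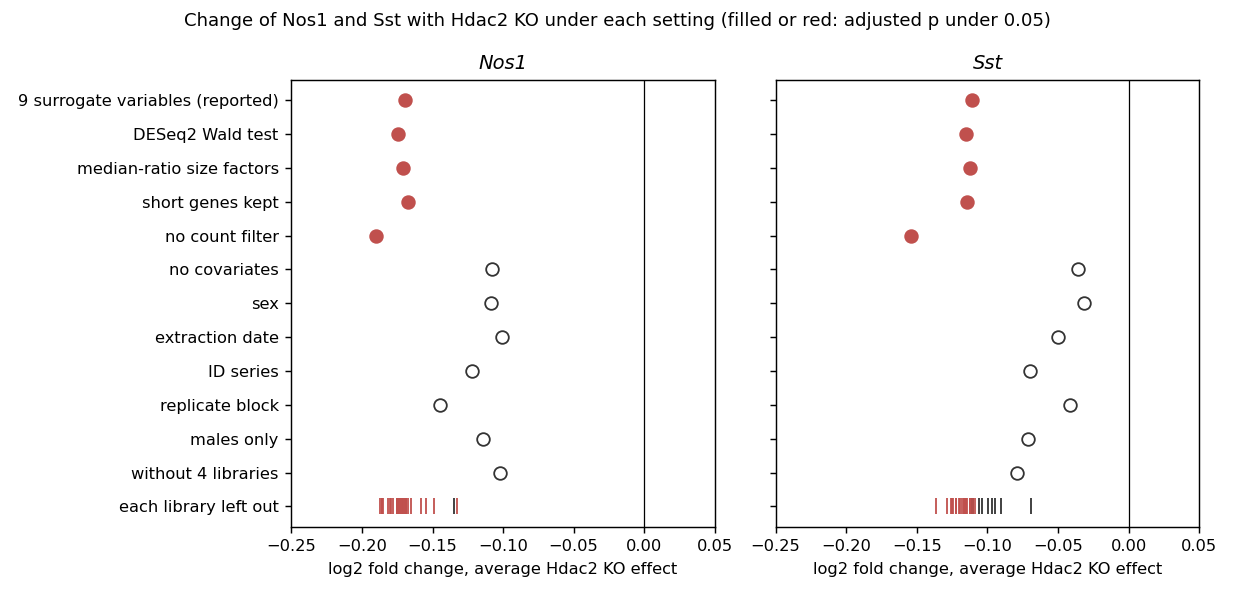
Log2 fold change of Nos1 (left) and Sst (right) for the average Hdac2 KO effect (horizontal axis) under each setting of the analysis (rows), with filled circles for an adjusted p under 0.05 and, in the last row, a tick per fit that leaves out 1 library, red where the adjusted p stays under 0.05. Every value shown is below 0, and the fits without surrogate variables are closer to 0 (-0.11 for Nos1 and -0.04 for Sst without covariates) than the reported fit (-0.17 and -0.11).

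In HttQ111/+ mice alone, edgeR called 0 of 9 markers for Hdac2 KO, with 16.5% of all genes called. At an unadjusted p under 0.05 there were 2, Sst (p = 0.0185, edgeR) and Nos1 (p = 0.037, edgeR), while 28.1% of all genes were under this p, and DESeq2 called 0. Sst was called on leaving out HttQ111/+ Hdac2 KO replicate 6 (-0.14, edgeR adjusted p = 0.0297), and Nos1 (-0.16, edgeR adjusted p = 0.048) on leaving out Htt+/+ Hdac2 WT replicate 1.

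The surrogate variables carried much of the spread of these genes among mice of 1 genotype. They took up 81.3% of the within-group variance of Sst, 80.3% of Nos1, 81.8% of Chat and 80.0% of Pvalb, but 30.4% of Th, against a median of 58.8% over all genes. In the comparison of Hdac2 KO with WT in Htt+/+ mice, 9 of 9 fitted changes were below 0 (median -0.10), whereas 50.4% of all genes were below 0 (median of all genes -0.00). For Pvalb, Chat and Slc5a7 the fitted change and the ratio of group means differed in sign there.

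**Figure D3:**
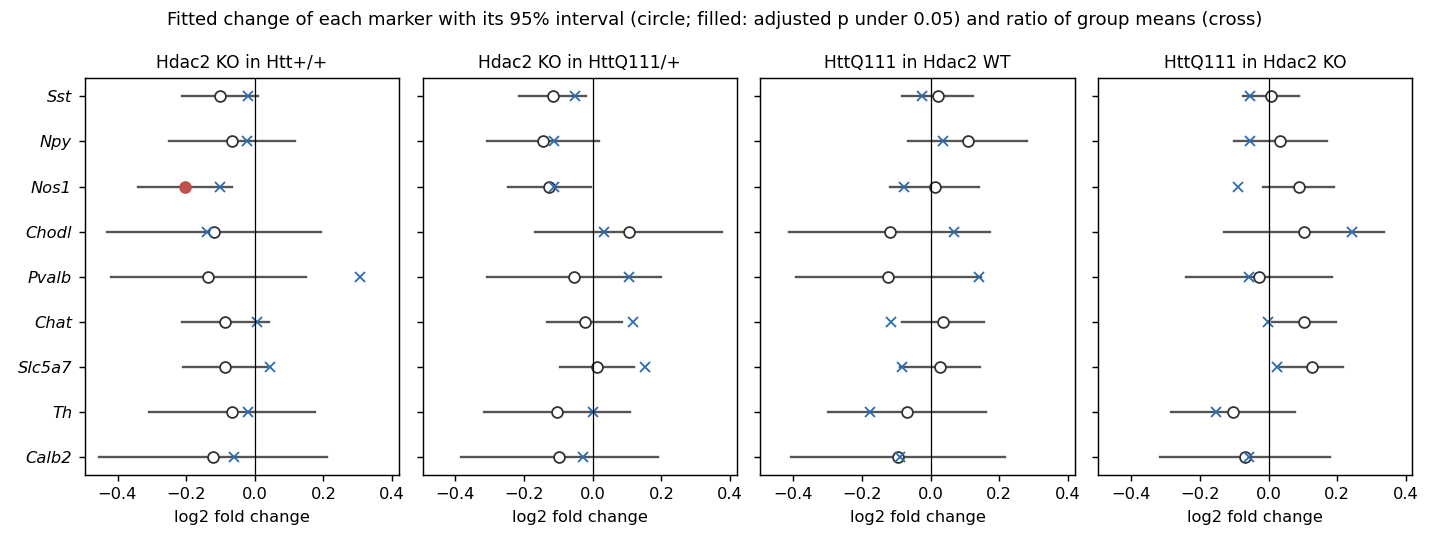
Fitted log2 fold change of each marker (circles, with 95% intervals as lines, filled where the adjusted p is under 0.05) and log2 ratio of the group mean CPM (crosses) in the 4 comparisons of 2 groups. The only filled circle is Nos1 for Hdac2 KO in Htt+/+ mice at -0.20, and for Pvalb in that comparison the circle (-0.13) and the cross (0.31) lie on opposite sides of 0.

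Pvalb (ENSMUSG00000005716, chr15:78191114-78206400, minus strand) was the most variable marker. It spanned 8.64 to 30.7 CPM (median 17.7) in Htt+/+ Hdac2 WT and 14.1 to 36.4 CPM (median 19.1) in HttQ111/+ Hdac2 WT striata. It spanned 12.9 to 36.1 CPM (median 21.8) in Htt+/+ Hdac2 KO and 11.3 to 28.7 CPM (median 22.9) in HttQ111/+ Hdac2 KO striata. The highest HttQ111/+ Hdac2 WT library was again replicate 7. Against the cortical sum Pvalb had r = 0.212 and rho = 0.08 (permutation p = 0.25 and 0.665). Both KO medians were above both WT medians, within the ranges of either. The mean of the females was 1.03 to 1.39 times that of the males in the 4 groups, which was not tested. The group mean was 23.7% higher in Htt+/+ Hdac2 KO than in Htt+/+ Hdac2 WT striata, while the fit gave -0.13 (SE 0.137, edgeR adjusted p = 0.572), and the alternatives ran from -0.35 to 0.37.

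The within-group SD of Pvalb on the log2 scale was 0.438, above that of 99.3% of genes of like level (median 0.118). The same percentile was 95.1 for Npy, 93.6 for Nos1, 90.7 for Slc5a7, 90.2 for Sst and for Chat, 78.5 for Chodl, 70.5 for Calb2 and 61.2 for Th.

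Among the cholinergic genes, Chat (ENSMUSG00000021919, chr14:32408203-32465909, minus strand) had medians of 33.9 and 31.7 CPM in Htt+/+ and HttQ111/+ Hdac2 WT striata, with ranges of 32.0 to 44.5 and 28.1 to 37.8 CPM. In Htt+/+ and HttQ111/+ Hdac2 KO striata the medians were 34.5 and 34.9 CPM, with ranges of 26.5 to 40.9 and 27.8 to 43.8 CPM. The HttQ111/+ Hdac2 WT group was the lowest of the 4 by a small margin. Slc18a3 lies inside Chat on the same strand (chr14:32462438-32464850), so the count of Chat can include its reads, and Gm2990 overlaps Chat on the other strand.

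Slc5a7 (ENSMUSG00000023945, chr17:54273594-54299034, minus strand) showed the same order at its low end, with medians of 82.6 CPM (72.6 to 96.7) in Htt+/+ Hdac2 WT and 77.2 CPM (66.3 to 87.3) in HttQ111/+ Hdac2 WT striata. In Htt+/+ Hdac2 KO and HttQ111/+ Hdac2 KO striata the medians were 86.0 CPM (66.2 to 96.9) and 88.3 CPM (69.6 to 103). The KO groups were not below the WT groups in either gene.

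For HttQ111 in Hdac2 WT mice, edgeR called 0 of 9 markers, with 0.403% of all genes called, and 0 had an unadjusted p under 0.05, as 10.9% of all genes did. DESeq2 also called 0. The 95% interval of the change ran from -5.59% to 8.97% for Sst, -7.82% to 10.3% for Nos1, -5.65% to 11.5% for Chat and -23.9% to 10.7% for Pvalb. In the same comparison, 5 of 10 tested MSN markers fell and 0 rose (median log2 fold change of the 10 markers -0.27, of all genes 0.00). Penk, the enkephalin precursor of indirect-pathway MSNs, fell by 0.49 on the log2 scale (SE 0.0977, edgeR adjusted p = 0.0177).

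For HttQ111 in Hdac2 KO mice, edgeR and DESeq2 each called 0 of 9 markers, with 0.00584% of all genes called by edgeR. At an unadjusted p under 0.05 there were 2, both cholinergic, and 7.52% of all genes. Slc5a7 had a log2 fold change of 0.13 (SE 0.0442, edgeR adjusted p = 0.435) and Chat of 0.10 (SE 0.0452, edgeR adjusted p = 0.618). The group means differed by 1.69% and -0.187%. The interaction of both genotypes was called for 0 of 9 markers by edgeR and by DESeq2, with 0.00577% of all genes called and 0 markers, against 5.63% of all genes, at an unadjusted p under 0.05. For the average HttQ111 effect, edgeR and DESeq2 called 0 of 9, with 1.27% of all genes called by edgeR and 1 marker, Slc5a7 (p = 0.0445, edgeR), at an unadjusted p under 0.05, as were 12.3% of all genes.

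Th (ENSMUSG00000000214, chr7:142892752-142931120, minus strand) had medians of 7.18 CPM (6.31 to 7.51) in Htt+/+ Hdac2 WT and 6.19 CPM (5.05 to 7.45) in HttQ111/+ Hdac2 WT striata. The medians were 7.35 CPM (4.85 to 8.39) in Htt+/+ Hdac2 KO and 6.4 CPM (5.18 to 7.43) in HttQ111/+ Hdac2 KO striata. Both HttQ111/+ groups thus had the lower medians, with group means 11.5% and 10.0% below their Htt+/+ counterparts (fitted log2 fold changes -0.07, SE 0.11, and -0.10, SE 0.0872, edgeR adjusted p = 0.884 and 0.855). Of 4 other genes of catecholamine synthesis and transport, Slc6a3, the dopamine transporter, had 0 to 0.243 CPM, and Slc18a2, the vesicular monoamine transporter, 0.105 to 0.827 CPM. Dbh, which makes noradrenaline, had 0 to 0.082 CPM, and Ddc, the decarboxylase that acts after Th and is also made outside dopamine neurons, 6.72 to 11.7 CPM.

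Calb2 (ENSMUSG00000003657, chr8:110142539-110168206, minus strand) had medians of 2.36, 2.46, 2.29 and 2.24 CPM in Htt+/+ Hdac2 WT, HttQ111/+ Hdac2 WT, Htt+/+ Hdac2 KO and HttQ111/+ Hdac2 KO striata. The HttQ111/+ Hdac2 WT group held both the lowest and the highest library, at 1.31 and 3.42 CPM. Calb2 was not called in any comparison.

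Further genes of the same classes were tested beside the markers. Among 3 companions of the Sst class (Tacr1, Crhbp and Lhx6), 4 of the Pvalb class (Pthlh, Cox6a2, Kcnc1 and Kcnc2) and 9 of the cholinergic class, edgeR called 0 in each of the 4 comparisons of 2 groups. Of all genes, 17.8% and 16.5% were called for Hdac2 KO in Htt+/+ and HttQ111/+ mice. For HttQ111 in Hdac2 WT and Hdac2 KO mice, 0.403% and 0.00584% were called. In HttQ111 against Htt+/+ in Hdac2 KO mice, 9 of 9 cholinergic companions were above 0 (median log2 fold change 0.12), whereas 50.7% of all genes were below 0 (median -0.00), and 4 had an unadjusted p under 0.05, as did 7.52% of all genes. These were Ecel1 (0.15, SE 0.0353), Slc10a4 (0.19, SE 0.0517), Slc17a8 (0.16, SE 0.0494) and Zic4 (0.21, SE 0.0943), with edgeR adjusted p of 0.136, 0.208, 0.324 and 0.627. The shared sign is that of the fit. Group means with HttQ111 were lower for Lhx8 (9.53 against 9.66 CPM), Ache (79.7 against 80.3 CPM) and Gbx2 (0.843 against 0.878 CPM), and higher for the others. Ecel1 and Slc17a8 also varied with Chat (r = 0.895 and 0.876), so these are not independent results. Averaged over Hdac2 genotypes, where 1.27% of all genes were called, Ecel1, an endopeptidase-like protein, was called at 0.12 (edgeR adjusted p = 0.0336), but its value without covariates was -0.01.

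Of 13 genes of other interneuron classes and of their lineage, edgeR called 1 in a comparison of 2 groups, in which 16.5% of all genes were called. Slc32a1, the vesicular GABA transporter that MSNs also use, was lower with Hdac2 KO in HttQ111/+ mice by -0.12 (SE 0.0412, edgeR adjusted p = 0.0394) and was called in 3 of 12 alternatives and in 13 of 35 fits that leave out 1 library. Its group means there were 209 ± 15.1 CPM (SD, n = 11) and 220 ± 19.5 CPM (SD, n = 7), within each other's range.

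Markers of 1 class varied together among mice of the same genotype to unequal degrees. After group means were taken off, 4 of 36 pairs passed a permutation test with Benjamini-Hochberg adjustment over the 36. Chat and Slc5a7 had r = 0.899 and rho = 0.903 (permutation p = 1e-05, the smallest the 100000 resamples allow, adjusted p = 0.00036). Within the 4 groups r was 0.851 to 0.931, and it was 0.875 without the 2 libraries farthest from the median of Chat. With sex and extraction date also taken off it was 0.888.

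Sst and Npy had r = 0.599 and rho = 0.539 (permutation p = 0.00051, adjusted 0.00612), but the 4 groups ran from 0.26 to 0.893. Without the 2 libraries farthest from the median of Sst, r was 0.438 (adjusted permutation p = 0.0922), so passing rests on those libraries. Nos1, which the same cells express, did not vary with either peptide gene, with r = -0.06 (permutation p = 0.738, adjusted 0.831) and rho = -0.054 against Sst and r = -0.018 (permutation p = 0.909, adjusted 0.952) and rho = 0.094 against Npy.

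**Figure D4:**
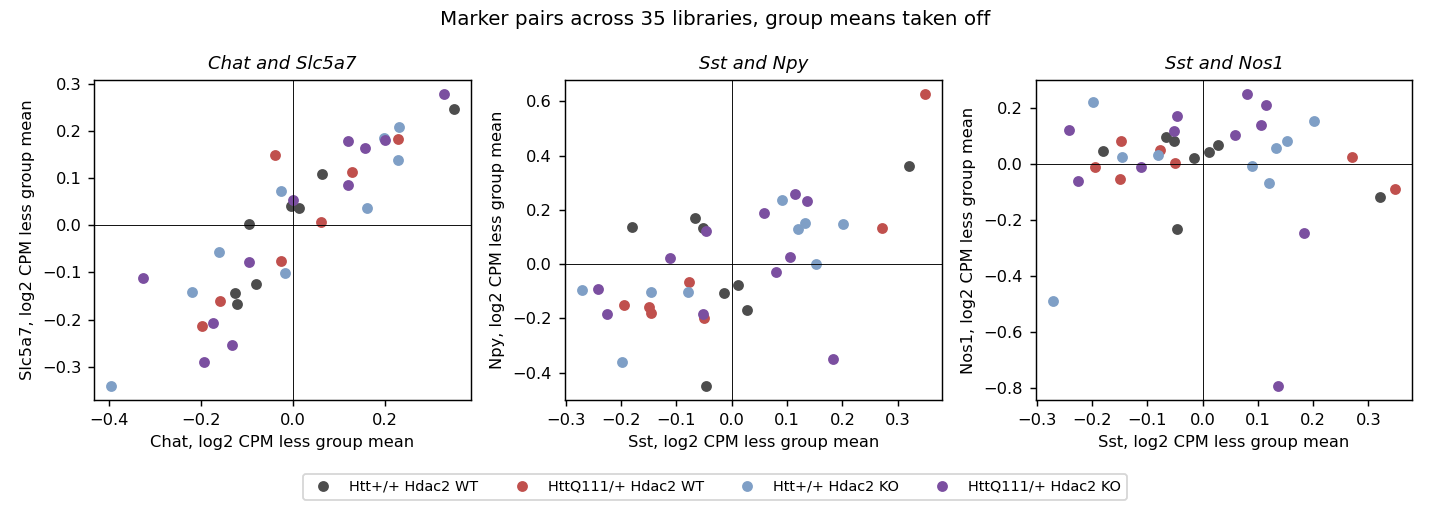
Log2 CPM less the group mean of 3 marker pairs (axes) in 35 libraries, coloured by genotype group. Chat and Slc5a7 lie along a line (r = 0.899), Sst and Npy more loosely (r = 0.599), and Sst and Nos1 show no trend (r = -0.06).

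Pairs across classes also passed. Nos1 and Slc5a7 had r = 0.582 (permutation p = 0.00034, adjusted 0.00612) and rho = 0.449 (adjusted permutation p = 0.0582), and r was 0.414 without the 2 libraries farthest from the median of Nos1 (adjusted permutation p = 0.126), where it no longer passed. Sst and Pvalb had r = 0.516 (permutation p = 0.00274, adjusted 0.0247) and rho = 0.525, with r = 0.404 (adjusted permutation p = 0.0922) without the 2 farthest, where it no longer passed. Without the 2 farthest libraries 3 pairs passed, of which only Chat and Slc5a7 also passed over all libraries. The others were Sst and Th, with r = 0.619 (adjusted permutation p = 0.0081) against 0.419 over all libraries (adjusted permutation p = 0.105), and Chat and Calb2, with r = -0.477 (adjusted permutation p = 0.045) against -0.381 (adjusted permutation p = 0.105). With sex and extraction date taken off, 8 pairs passed, among them Chat and Calb2 with r = -0.524 (adjusted permutation p = 0.00765). That shuffling within groups took no account of the sex and date terms removed, so its p can be too small and the 8 too many. Over the 36 pairs r was above 0 in 23, with a median of 0.133.

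**Figure D5:**
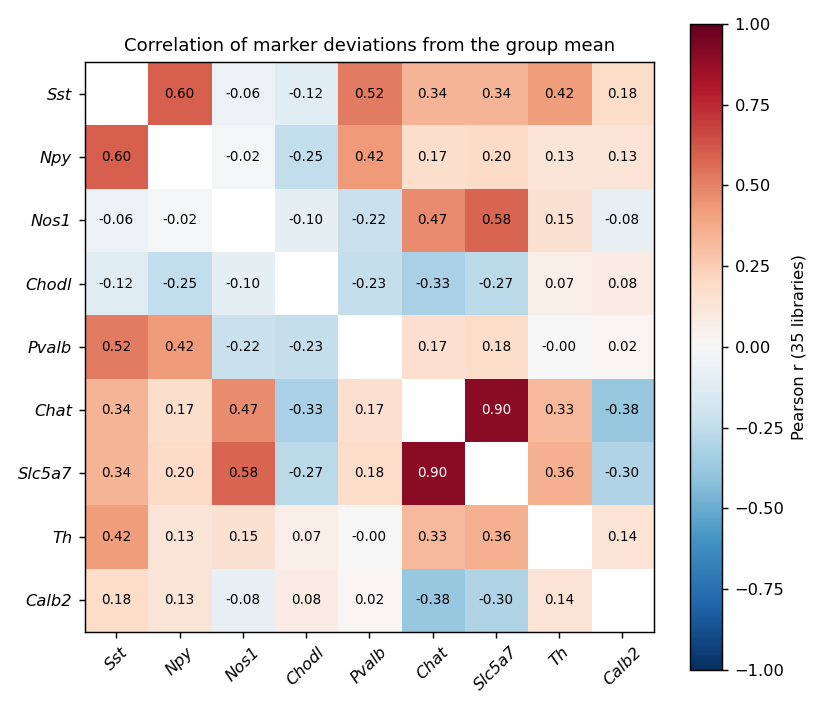
Pearson r of log2 CPM less group means for each of 36 marker pairs over 35 libraries (colour scale from -1 to 1). The darkest cell off the diagonal is Chat with Slc5a7 (0.90), and Nos1 is near 0 with Sst and Npy.

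The genes nearest to each marker among 14782 genes differed in kind, as a description over 35 libraries that share dissection and RNA quality. Those nearest to Chat were Acly (r = 0.916), which makes the acetyl-CoA that Chat uses, Slc5a7 (0.899) and Ecel1 (0.895). Slc5a7 was nearest to Slc17a8 (0.933), the vesicular glutamate transporter of cholinergic interneurons, then Acly (0.921) and Chat (0.899). Pvalb was nearest to Vamp1 (0.945), a vesicle fusion protein, Nefh (0.922), the heavy neurofilament, and Hapln4 (0.876), a link protein of perineuronal nets.

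The nearest genes to the Sst class were of another sort. Nos1 was nearest to Macf1 (0.862), Slc1a2 (0.86), the main glutamate transporter of astrocytes, and Lrp1 (0.859). Its 10 nearest genes were long, with a median of 17857 nt of merged exons over the 8 that had a length, against 4391 nt over all genes. Nos1 itself has 11151 nt. Sst, with 721 nt, was nearest to Rnf187 (0.866), Aes (0.862) and Uqcrq (0.851), a subunit of respiratory complex III, and its 10 nearest genes had a median of 2352 nt. Among these neighbours of Sst, Npy came 585th.

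For the other markers the nearest genes had lower r. Npy was nearest to Ltbp1 (0.82), Col24a1 (0.744) and Cyth2 (0.737), and Chodl to Zfp128 (0.78), Dync2li1 (0.744) and Snx31 (0.738). Th was nearest to Hey2 (0.644), Pdpn (0.597) and Rgs10 (0.592), and Calb2 to Rsph1 (0.652), Btbd3 (0.647) and Ak5 (0.646).

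Each marker was set against summed marker lists among mice of 1 genotype, and 49 of 162 relations passed a permutation test after Benjamini-Hochberg adjustment. The 162 include the lists of companions, lineage genes and receptors, so the 49 are not all relations with other cell types. Each sum adds CPM, so a gene counts by its level. Chat had r = 0.903 and rho = 0.911 with the sum of the 9 cholinergic companions (adjusted permutation p = 0.000162, r = 0.906 without the 2 farthest libraries). Pvalb had r = 0.812 and rho = 0.769 with the sum of its 4 companions (adjusted permutation p = 0.000162, r = 0.757 without the 2 farthest). Some relations were inverse. With the sum of the 13 genes of other interneuron classes and lineage, r was -0.737 for Npy, -0.658 for Sst and -0.526 for Pvalb. Their adjusted permutation p were 0.00027, 0.000432 and 0.0131, and r without the 2 farthest was -0.693, -0.546 and -0.314. That sum is largely Gad1 (group means 760 to 792 CPM) and Gad2 (588 to 616 CPM). The sum of the 3 companions of the Sst class followed Chat (r = 0.826, rho = 0.822, adjusted permutation p = 0.000162, r = 0.818 without the 2 farthest) more than Sst (r = 0.531, rho = 0.549, adjusted permutation p = 0.00627, r = 0.613 without the 2 farthest). This sum is largely Tacr1, with group means of 56.3 to 61.8 CPM, against 22.4 to 23.7 CPM for Lhx6 and 1.77 to 3.2 CPM for Crhbp. Cholinergic interneurons also express Tacr1, the fourth nearest gene to Chat (r = 0.89). Likewise Kcnc1, at 112 to 121 CPM, was the most abundant companion of Pvalb.

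Pvalb also varied with 4 thalamic genes (r = 0.622, rho = 0.545, adjusted permutation p = 0.00279, r = 0.457 without the 2 farthest) and with Ngfr, a marker of basal forebrain cholinergic neurons (r = 0.673, rho = 0.596, adjusted permutation p = 0.00027, r = 0.557 without the 2 farthest). The thalamic sum ranged from 11.7 to 20.6 CPM and Ngfr from 1.498 to 5.268 CPM over all libraries. Most of the thalamic sum was Prkcd, with group means of 8.72 to 10.5 CPM. Chat varied inversely with 7 genes of immature neurons of the ventricular wall (r = -0.693, rho = -0.727, adjusted permutation p = 0.000162, r = -0.658 without the 2 farthest), whose sum ran from 28.7 to 85.2 CPM. Calb2 varied with the same sum in the other direction (r = 0.476, rho = 0.452, adjusted permutation p = 0.0195, r = 0.399 without the 2 farthest). The part of these cell types in the levels of the markers was not tested.

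The cholinergic genes also varied with markers of non-neuronal cells. Slc5a7 had r = 0.728 and rho = 0.727 with the sum of 3 endothelial genes (adjusted permutation p = 0.000162, r = 0.688 without the 2 farthest), r = 0.723 and rho = 0.688 with 4 microglial genes (adjusted permutation p = 0.000162, r = 0.688 without the 2 farthest) and r = 0.707 and rho = 0.687 with 4 astrocyte genes (adjusted permutation p = 0.000347, r = 0.649 without the 2 farthest). For Chat, r was 0.628 with the endothelial sum (adjusted permutation p = 0.00307), 0.664 with the microglial sum (0.000607) and 0.555 with the astrocyte sum (0.00732). With oligodendrocyte genes r was -0.013 for Slc5a7 and -0.041 for Chat (adjusted permutation p = 0.958 and 0.875). The most abundant genes of the endothelial, microglial and astrocyte sums were Flt1 (group means 69.8 to 81.4 CPM), Csf1r (140 to 166 CPM) and Slc1a3 (658 to 723 CPM). What these sums share with the cholinergic genes was not tested.

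The receptors for the transmitters of these interneurons are in part made by MSNs, where Hdac2 was deleted. Npy1r, a receptor for neuropeptide Y, had 10.2 to 14.0 CPM in Htt+/+ Hdac2 WT against 13.2 to 17.6 CPM in Htt+/+ Hdac2 KO striata, and 10.9 to 17.7 CPM in HttQ111/+ Hdac2 WT against 15.5 to 21.2 CPM in HttQ111/+ Hdac2 KO striata. With Htt+/+ the ranges overlapped at their ends, and the KO median (15.4 CPM) lay above the WT range. With HttQ111/+ they overlapped more, and the KO median (16.5 CPM) lay inside the WT range. The log2 fold change was 0.53 (SE 0.0966, edgeR adjusted p = 0.000177) in Htt+/+ and 0.43 (SE 0.0836, edgeR adjusted p = 0.0005) in HttQ111/+ mice, and it was called in 11 of 12 alternatives in each. The exception was extraction date replacing the surrogate variables, with 0.15 (edgeR adjusted p = 0.573) in Htt+/+ and 0.0033 (edgeR adjusted p = 0.995) in HttQ111/+ mice.

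Of the 8 somatostatin and neuropeptide Y receptors, 2 rose with Hdac2 KO in Htt+/+ mice (median of the 8 0.08) and 3 in HttQ111/+ mice (median 0.27), and 0 fell in either, where 17.8% and 16.5% of all genes were called. Besides Npy1r these were Sstr2 (0.68, SE 0.174, edgeR adjusted p = 0.00539, and 0.57, SE 0.154, edgeR adjusted p = 0.00868) and, in HttQ111/+ mice, Sstr3 (0.64, SE 0.182, edgeR adjusted p = 0.015). The call of Sstr2 in Htt+/+ mice was kept in 6 of 12 alternatives, and its value was 0.43 without covariates (edgeR adjusted p = 0.396) and 0.22 with ID series (edgeR adjusted p = 0.704). In HttQ111/+ mice both were called in 5 of 12 alternatives, and the sign of both was opposite without covariates, -0.45 for Sstr2 and -0.55 for Sstr3. There 1 HttQ111/+ Hdac2 WT library, replicate 7, had 20.7 CPM of Sstr2 and 9.68 CPM of Sstr3, against group medians of 2.91 and 1.38, and held 422 CPM of 6 cortical projection neuron genes, against a group median of 24.3. The part of cortical RNA in these values was not tested.

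Of the 5 muscarinic receptors, Chrm1 was lower with Hdac2 KO in both Htt genotypes. It had 158 to 209 CPM in Htt+/+ Hdac2 WT against 138 to 167 CPM in Htt+/+ Hdac2 KO striata, and 161 to 184 CPM in HttQ111/+ Hdac2 WT against 136 to 166 CPM in HttQ111/+ Hdac2 KO striata. The log2 fold changes were -0.14 (SE 0.0499, edgeR adjusted p = 0.0453) and -0.16 (SE 0.0454, edgeR adjusted p = 0.0137). The call was kept in 9 of 12 alternatives and 19 of 35 fits that leave out 1 library in Htt+/+ mice, and in 11 of 12 and 33 of 35 in HttQ111/+ mice. Chrm4 rose in Htt+/+ mice (0.16, SE 0.0566, edgeR adjusted p = 0.0445) and Chrm5 fell in HttQ111/+ mice (-0.94, SE 0.3, edgeR adjusted p = 0.0264). These calls were kept in 3 and 4 of 12 alternatives and in 7 and 30 of 35 fits that leave out 1 library. In these comparisons 17.8% and 16.5% of all genes were called. Chrm5 was near the floor, at 0.175 to 1.00 CPM in HttQ111/+ Hdac2 WT and 0.0735 to 0.579 CPM in HttQ111/+ Hdac2 KO striata. It passed the count filter there only through the Hdac2 WT group, where it was higher. Its call therefore depends on that filter and is given as a description only.

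Of the 3 subunits of the nitric oxide receptor guanylyl cyclase, Gucy1a3 was called higher and Gucy1b3 lower with Hdac2 KO in both Htt genotypes, not under every setting. Of all genes, 17.8% were called there in Htt+/+ and 16.5% in HttQ111/+ mice. Gucy1a3 changed by 0.23 (SE 0.0392, edgeR adjusted p = 9.49e-05) in Htt+/+ and 0.10 (SE 0.0333, edgeR adjusted p = 0.0351) in HttQ111/+ mice, and its sign in HttQ111/+ mice turned with extraction date replacing the surrogate variables (-0.04). Gucy1b3 changed by -0.10 (SE 0.0325, edgeR adjusted p = 0.0319) and -0.09 (SE 0.029, edgeR adjusted p = 0.0396). The call of Gucy1a3 was kept in 8 of 12 alternatives in Htt+/+ and in 4 of 12 in HttQ111/+ mice. That of Gucy1b3 was kept in 9 of 12 alternatives and 15 of 35 fits that leave out 1 library in Htt+/+ mice, and in 6 of 12 and 6 of 35 in HttQ111/+ mice. With HttQ111 the only receptor called in a comparison of 2 groups was Sstr5 in Hdac2 WT mice (-1.82, SE 0.434, edgeR adjusted p = 0.0439), where 0.403% of all genes were called. It was called in 6 of 12 alternatives and in 14 of 35 fits that leave out 1 library, and it had 0.586 to 10.6 CPM in Htt+/+ and 0.699 to 6.74 CPM in HttQ111/+ Hdac2 WT striata, ranges that overlap widely.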

How the data were processed

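The authors made stranded mRNA libraries from striata, aligned the read pairs with GSNAP (genome GRCm38), and took each gene's count from uniquely aligned reads over its full Ensembl interval, introns included. They deposited raw counts per gene and library, without normalization. Whether counting used strand is not given in the sources used here. Of 39109 rows, those of 92 spike-ins, of 2 mitochondrial rRNAs and of 6152 genes with a span up to 250 nt were not tested. A tested gene had 6 or more counts in each library of some group compared. Groups came from the sample labels.

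All 35 libraries were fitted with TMM scaling and 9 surrogate variables (sva 3.50.0), after the study's methods, in R 4.3.3 with edgeR 4.0.16 (quasi-likelihood test, Benjamini-Hochberg over all genes tested, threshold 0.05). DESeq2 1.42.0 was an alternative, as were other covariates, libraries, scaling, filters and each library left out. DESeq2 was given the surrogate variables of the edgeR fit. The fits that leave out 1 library kept the surrogate variable values of the full fit. Neither is thus an independent check of those variables. The replicate block is the replicate number of the sample label. Correlations used log2 CPM less group means, with 100000 permutations within groups, two-sided. On simulated counts of Hdac2 KO in Htt+/+ for 17346 genes, 80 of 100 genes changed by 0.25 and 100 of 100 changed by 0.5 (log2) were called. There were 6 wrong calls. Whether changes of these sizes would be called at the within-group spread of the markers was not tested.

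The members and the gene lists were chosen with earlier results of these data known. Named were every member, up to 4 genes with the smallest p of each other list, and the 3 genes nearest to each member. Chodl and Calb2, with the fewest counts, have the widest intervals among the members. Promoter windows are those before RefSeq starts. Slc18a3 and pathway analyses were not analysed here.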

Additional observations from a re-analysis of the deposited data

Results flagged for a closer look

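In 5 of 27 tests of a group of 4 to 10 libraries for a library far from the rest, 1 library stood apart, where chance gives about 1 in 20 for a single test. The same libraries recur among the 5, and markers vary together within a library. The tests are thus not independent, and the excess over 1 in 20 cannot be judged from this count. In Htt+/+ Hdac2 WT striata, replicate 9 had the highest Sst (122.6 CPM, next 100.1 CPM) and the highest Chat (44.46 CPM, next 36.45 CPM). In HttQ111/+ Hdac2 WT striata, replicate 7 had the highest Npy (57.7 CPM, next 40.97 CPM) and the highest Pvalb (36.35 CPM, next 20.99 CPM). This library also held 422.4 CPM of cortical projection neuron genes, against a group median of 24.32, and the part of cortical RNA in these values was not tested. In Htt+/+ Hdac2 KO striata, replicate 1 had the lowest Nos1 (29.96 CPM, next 40.14 CPM). The group of 11 HttQ111/+ Hdac2 KO libraries was too large for this test. Its replicate 4, which had the lowest Nos1 of all libraries (22.68 CPM), was therefore not flagged by it. That library is nevertheless among the 4 left out in the setting chosen after the data were seen.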

How the results depend on the processing

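Over the 9 markers and 7 comparisons, 521 of 729 values under the alternatives kept the direction and the side of the threshold, 22 kept the direction but no longer passed, and 186 changed sign without being called under either. With 1 library left out, 2100 of 2205 values kept both, 12 no longer passed, 2 passed newly and 91 changed sign without a call. The number of markers called for Hdac2 KO in Htt+/+ (1 as reported) and for the average Hdac2 KO effect (2 as reported) was 0 and 0 without covariates, with sex, extraction date, ID series or the replicate block in place of the surrogate variables, in males only, and without the 4 libraries that stood apart in a marker (chosen after seeing the data). It was 0 for Hdac2 KO in Htt+/+ with the libraries of both groups only. With 1 library left out, it ran from 0 to 1 for Hdac2 KO in Htt+/+ and in HttQ111/+, and from 0 to 2 for the average effect. The causes were not tested. DESeq2, median-ratio size factors, no count filter and short genes kept left both counts as reported. Of the correlations, 8 passed with sex and date taken off, where p can be too small, 3 by Spearman's rho and 3 without the 2 farthest libraries, against 4. Of these last 3, only Chat with Slc5a7 is among the 4.

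The replicate numbers do not pair the mice: of 45 same-numbered pairs of libraries, 15 had a correlation over 0.1 (range -0.199 to 0.274). With the replicate block, 0 markers were called, and the number of all genes called went from 3056 to 4351 for Hdac2 KO in Htt+/+ and from 2841 to 1854 in HttQ111/+. Extraction date gave 822 and 331 genes, the groups compared alone 5094 and 3205, and males only 1970 and 1711. For HttQ111 in Hdac2 WT mice (69) the alternatives gave 0 to 837 genes, in Hdac2 KO mice (1) 0 to 45, for the interaction (1) 0 to 7, for the average HttQ111 effect (220) 80 to 629, and for the average Hdac2 KO effect (4341) 802 to 5568.

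Signs turned for some other genes called. Sstr2 for Hdac2 KO in HttQ111/+ was -0.45 without covariates, -0.27 with sex, -0.48 with date, -0.32 with ID series and -0.073 with the replicate block. Sstr3 was -0.55, -0.28, -0.77, -0.42 and -0.18 in the same order, and Gucy1a3 was -0.040 with date. For the average Hdac2 KO effect, Sstr2 was -0.0071 without covariates, -0.12 with date and -0.044 with ID series, and Sstr3 was -0.15 with date. For the average HttQ111 effect, Ecel1 was -0.0067 without covariates, -0.0066 with sex and -0.012 with the replicate block. The alternative that takes the counts of Slc18a3 off those of Chat was not run.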
